A study of Oryza sativa with 10 samples.

Results

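The comparison described here set rice seedlings kept in light for 24 h against seedlings of the same age that were sprayed with abscisic acid (ABA) for the last 30 min of that time. Its members were the 4 RNA-seq libraries named for these conditions, 2 with the ABA spray (ABA) and 2 without a hormone (24 h), of 10 libraries in all. Seedlings of the indica cultivar YD6 were germinated for 3 d in darkness at 28 °C and then moved to light, and the remaining libraries came from seedlings in darkness (0 h), after 8 h of light (8 h), and after 24 h of light with a spray of the auxin indole-3-acetic acid (IAA), 2 of each. ABA and IAA were applied at 100 μM in 1% DMSO, and whether the 24 h libraries came from seedlings sprayed with 1% DMSO alone is not given in the sources used here, so the hormone, its solvent and the act of spraying cannot be told apart. All plants were of the same cultivar, and no transgene or mutant was part of these groups. RNA was taken from seedlings as a whole, so fewer cells of a type and less RNA per cell cannot be told apart in any value below. Transcript levels were given as FPKM (fragments scaled by transcript length and by the number of mapped fragments) for 2282 genes of chromosome 1, up to position 21262392 of the MSU7.0 rice genome, of which 1092 averaged 1 FPKM or more across all 10 libraries and were tested.

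ABA is the plant hormone of drought, seed dormancy and the restraint of germination. It binds soluble receptors of the PYR/PYL family, which then block type 2C protein phosphatases, and SnRK2 protein kinases freed from these phosphatases phosphorylate bZIP transcription factors that bind ABA-responsive elements in promoters. Light acts on the same seedlings through photoreceptors and transcription factors that switch them from growth in darkness to greening, and GOLDEN2-LIKE (GLK) factors drive genes of chloroplast development in that switch. The question put to the data was which transcripts moved within 30 min of ABA, and whether they moved further along, or back against, the change that light had brought. The gene identifiers of the table matched no entry of the gene table used for names, so genes are given by identifier and position, and roles are stated only for GLK2 (LOC_Os01g13740) and OsbZIP1 (LOC_Os01g07880, a rice homolog of Arabidopsis HY5), which the study pairs with identifiers. The tissue label could not be checked against marker genes for the same reason.

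The depth of the libraries is unknown, because the values are FPKM of part of the genome. The distance between libraries, taken as the Euclidean distance over the log2(FPKM + 1) values of the 1092 genes, was 5.02 between the ABA replicates and 7.82 between the 24 h replicates, the widest of the 5 replicate pairs. ABA and 24 h libraries lay 12.1 to 13.3 apart, and ABA libraries lay 28.8 to 29.4 from those in darkness. The ABA libraries were thus apart from the 24 h libraries by more than replicates were from each other, and both were far from darkness. Across the tested genes the median ABA minus 24 h difference was -0.10 on the log2 scale, so the middle of the genes lay slightly below 0, and changes relative to this median were larger by that amount for genes that rose and smaller for genes that fell.

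ABA changed few of these transcripts by 2-fold or more, and most of those rose. In total 18 genes were called higher with ABA than at 24 h and 4 were called lower, 1.65% and 0.366% of the 1092 genes tested. A call required a 2-fold change on the log2(FPKM + 1) scale and an adjusted p under 0.01 in limma with Benjamini-Hochberg adjustment. Limma fits a linear model to each gene and draws the gene's spread toward that of genes at a similar level. Smaller differences in FPKM as deposited went mostly the other way. At an adjusted p under 0.01 with no limit on size, 82 genes (7.51%) were higher and 133 (12.2%) were lower in limma with Benjamini-Hochberg adjustment, and 193 of these passed the test below a 2-fold change. The middle portion of the genes, from the first to the third quartile, differed by -0.25 to 0.09 on the log2 scale, and 34.2% of genes lay above 0. Under median-of-ratios scaling of the libraries the median difference was -0.002 in place of -0.10. The lean of smaller differences toward lower values thus cannot be told apart from a shift of whole libraries. With that scaling 25 genes were called higher in place of 18, and 4 were again called lower. A pseudocount of 0.1 in place of 1 gave 25 higher and 10 lower. Over the whole genome the study reports similar numbers of genes raised and lowered by ABA, from DESeq2 at the same limits. The 2 ABA libraries did not overlap the 2 libraries at 24 h for any of the 22 called genes, beside 749 of all tested genes (68.6%).

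**Figure D1:**
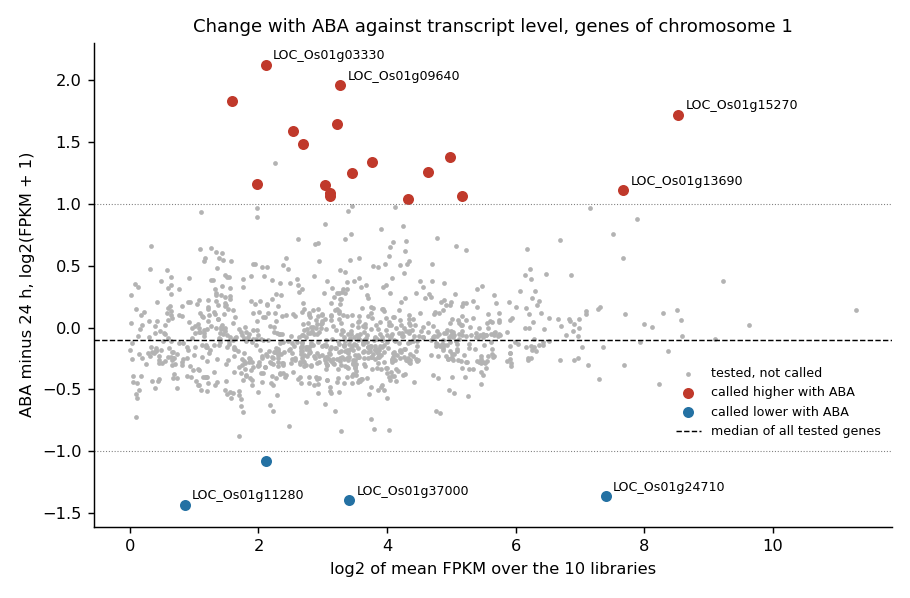
Change with ABA (ABA minus 24 h, log2(FPKM + 1), vertical axis) against the log2 of the mean FPKM over the 10 libraries (horizontal axis) for 1092 genes of chromosome 1, with one point a gene, red for the 18 called higher and blue for the 4 called lower. The dashed line marks the median of all tested genes at -0.10 and the dotted lines the 2-fold limits, and called genes are found at low, middle and high levels.

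Called genes were spread over the range of levels. Of genes with a mean of 1 to 5 FPKM, 5 of 350 were called, of those at 5 to 20 FPKM 11 of 460, and of those at 20 FPKM or more 6 of 282. The median length from start to end of the gene was 1971.5 bp for the 22 genes and 3591.5 bp for all tested genes. Leaving out 24 h replicate 1 raised the number of genes called higher from 18 to 28. Just inside the 2-fold limit were LOC_Os01g26120 and LOC_Os01g21420 at log2 changes of 1.04 and 1.06, and just outside were LOC_Os01g19820 and LOC_Os01g28790, both at 0.98. Without 24 h replicate 2, the log2 changes of LOC_Os01g12920, LOC_Os01g18230, LOC_Os01g21420 and LOC_Os01g26120 dropped below the limit, to 0.85, 0.98, 0.97 and 0.83. LOC_Os01g05585 was past 2-fold but not past the test (1.33, limma with Benjamini-Hochberg adjusted p = 7.21e-02), with 0 and 5.07 FPKM in the 2 libraries at 24 h and 4.73 and 5.73 FPKM with ABA.

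LOC_Os01g03330 (chromosome 1, 1344557 to 1346419, minus strand) rose most on the log2 scale. Its level was 1.16 and 1.07 FPKM at 24 h and 8.11 and 8.32 FPKM with ABA, a 7.38-fold higher mean FPKM. The log2 change was 2.12 (SE 0.123, limma with Benjamini-Hochberg adjusted p = 1.82e-07). Its dark libraries stood at 7.63 and 6.79 FPKM, so the ABA libraries lay above both, by less than 2-fold, and the 24 h libraries lay far below. LOC_Os01g09640 (4971171 to 4973555, minus strand) had another pattern. It measured 6.45 and 7.14 FPKM in darkness, 3.80 and 4.38 FPKM at 8 h, 5.61 and 6.03 FPKM at 24 h, and 25.1 and 25.9 FPKM with ABA. Only the ABA libraries of this gene were high, and its log2 change was 1.96 (SE 0.088, limma with Benjamini-Hochberg adjusted p = 2.48e-08).

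The gene with the highest level among those that rose was LOC_Os01g15270 (8545997 to 8546894, minus strand), which lay above 99.4% of tested genes in mean FPKM. Its transcripts fell from 791 and 726 FPKM in darkness to 87.6 and 87.8 FPKM at 8 h, then stood at 155 and 147 FPKM at 24 h and at 492 and 506 FPKM with ABA. The log2 change with ABA was 1.72 (SE 0.071, limma with Benjamini-Hochberg adjusted p = 1.67e-08), with both ABA libraries between those of 24 h and those of darkness. LOC_Os01g13690 (7665101 to 7668163, plus strand) was the other abundant transcript that rose, from 212 and 207 FPKM at 24 h to 446 and 461 FPKM with ABA (log2 change 1.11, SE 0.057, limma with Benjamini-Hochberg adjusted p = 5.61e-08). This gene had been at 62.0 and 58.8 FPKM in darkness, so its ABA libraries were the highest of all 10.

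The remaining genes that rose had log2 changes between 1.04 and 1.83. LOC_Os01g03320 (1.83), LOC_Os01g11600 (1.65), LOC_Os01g04590 (1.59), LOC_Os01g12760 (1.48), LOC_Os01g03310 (1.38) and LOC_Os01g32780 (1.34) led them, followed by LOC_Os01g09620 (1.26), LOC_Os01g15000 (1.25), LOC_Os01g18230 (1.16), LOC_Os01g12920 (1.15), LOC_Os01g08470 (1.09), LOC_Os01g04330 (1.06), LOC_Os01g21420 (1.06) and LOC_Os01g26120 (1.04). The standard error of the change was largest for LOC_Os01g12920 (0.189) and LOC_Os01g11600 (0.177). LOC_Os01g12920 measured 6.98 and 4.28 FPKM at 24 h and 14.0 and 12.8 FPKM with ABA, a log2 change of 1.15 (limma with Benjamini-Hochberg adjusted p = 8.85e-04). LOC_Os01g11600, with 350 bp the shortest of the genes that rose, measured 5.81 and 5.74 FPKM at 24 h and 23.6 and 17.4 FPKM with ABA. In both genes the ABA libraries lay above both at 24 h by more than the replicates were apart. Over all 18 genes, 13 had both ABA libraries above the other 8. The 18 were chosen as higher with ABA, and the share of all tested genes with this pattern was not counted.

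Of the 4 genes that fell, LOC_Os01g11280 (6037423 to 6039070, minus strand) fell by 1.43 on the log2 scale (SE 0.112, limma with Benjamini-Hochberg adjusted p = 1.98e-06). It stood at 1.97 and 1.98 FPKM at 24 h and at 0.079 and 0.125 FPKM with ABA, and its mean FPKM was 19.3-fold lower with ABA, a ratio that the pseudocount of 1 compresses on the log2(FPKM + 1) scale. The other 8 libraries of this gene lay between 1.52 and 3.17 FPKM, so the ABA libraries stood apart from all of them. LOC_Os01g37000 (20640981 to 20643886, plus strand) fell by 1.39 (SE 0.109, limma with Benjamini-Hochberg adjusted p = 1.98e-06), from 2.96 and 3.12 FPKM at 24 h to 0.688 and 0.402 FPKM. LOC_Os01g24710 (13903153 to 13904729, minus strand) was abundant and dropped from 151 and 157 FPKM to 57.9 and 60.8 FPKM, a log2 change of -1.36 (SE 0.090, limma with Benjamini-Hochberg adjusted p = 4.57e-07). LOC_Os01g18450 (10370062 to 10370403, minus strand) dropped from 5.29 and 4.21 FPKM to 1.78 and 1.64 FPKM, a log2 change of -1.08 (SE 0.130, limma with Benjamini-Hochberg adjusted p = 7.56e-05). For all 4, chosen as lower with ABA, both ABA libraries were below the other 8. The share of all tested genes with this pattern was not counted. LOC_Os01g18450 was the least stable of the 4, since its log2 change without 24 h replicate 1 was -0.94, under the 2-fold limit.

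**Figure D2:**
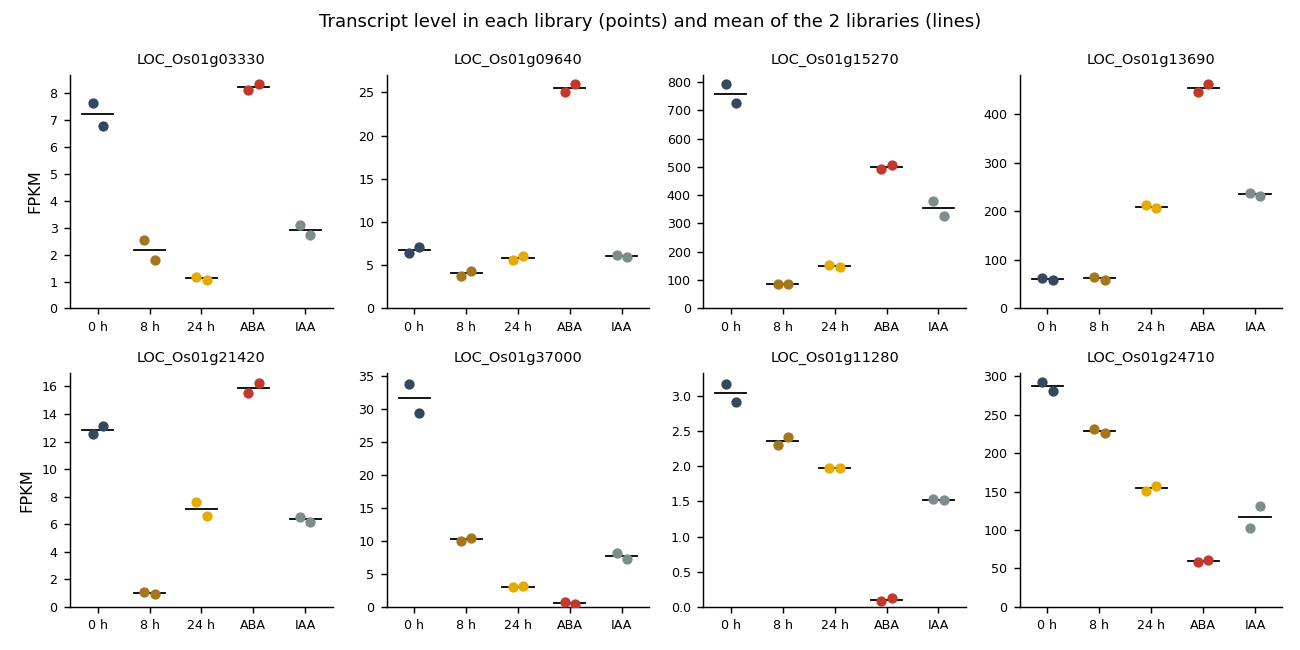
FPKM in each of the 10 libraries (one point a library, lines for the mean of 2, linear vertical axes from 0) for 8 of the genes called with ABA, by condition from darkness through 8 h and 24 h of light to ABA and IAA. LOC_Os01g09640 was high in the 2 ABA libraries alone (25.1 and 25.9 FPKM), and LOC_Os01g11280 was under 0.2 FPKM in these alone.

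To place these changes against the effect of light, 24 h was compared with 0 h. Light raised 76 genes (6.96%) and lowered 93 (8.52%) at the same limits. This comparison shares the 24 h libraries with ABA against 24 h, so a value that is by chance low at 24 h gives both a fall with light and a rise with ABA, and the counts below are those that the question itself asks for. Of the 22 genes called with ABA, 8 were also called between 24 h and 0 h. ABA moved 5 of them back against their light change and 3 further along it, and for the other 14 the light change was not called. Without 24 h replicate 1 the number moved back was 13 in place of 5.

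The 5 genes that moved back had all been lowered by light and rose with ABA. They were LOC_Os01g15270 (log2 change -2.32 from 0 h to 24 h), LOC_Os01g03330 (-1.96), LOC_Os01g18230 (-1.30), LOC_Os01g03310 (-1.18) and LOC_Os01g04330 (-1.18), each called in limma with Benjamini-Hochberg adjustment. On the log2 scale the rise with ABA equalled 74.1% of the fall with light for LOC_Os01g15270, 88.9% for LOC_Os01g18230, 90.0% for LOC_Os01g04330, 109% for LOC_Os01g03330 and 116% for LOC_Os01g03310. Under median-of-ratios scaling of the libraries, which sets the median change of all genes to about 0, the same shares were 96.2%, 132%, 151%, 139% and 191%, so whether ABA brought a gene short of its dark level or past it depended on the scaling. LOC_Os01g04330, for example, measured 53.3 and 52.3 FPKM in darkness, 13.1 and 12.2 FPKM at 8 h, 23.5 and 21.9 FPKM at 24 h, and 46.9 and 50.2 FPKM with ABA. In FPKM as deposited, the ABA libraries of this gene lay below those of darkness, with an ABA minus 0 h difference of -0.12 that turned to 0.40 under median-of-ratios scaling, and above all libraries at 8 h and 24 h. With that scaling the number moved back was again 5, but 2 of these were among the 5 named here.

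Among the 3 genes moved further along, 2 had been raised by light and rose again. LOC_Os01g13690 changed by 1.78 from 0 h to 24 h and by 1.11 with ABA, and LOC_Os01g15000 by 1.11 and 1.25. LOC_Os01g15000 stood at 3.27 and 3.11 FPKM in darkness, 8.28 and 7.85 FPKM at 24 h, and 20.1 and 21.0 FPKM with ABA. LOC_Os01g37000 went in the other direction, having fallen with light by 3.01 on the log2 scale before it fell with ABA. Its transcripts went from 33.8 and 29.4 FPKM in darkness through 10.04 and 10.38 FPKM at 8 h and 2.96 and 3.12 FPKM at 24 h to the values below 1 FPKM with ABA, in steps that never overlapped.

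**Figure D3:**
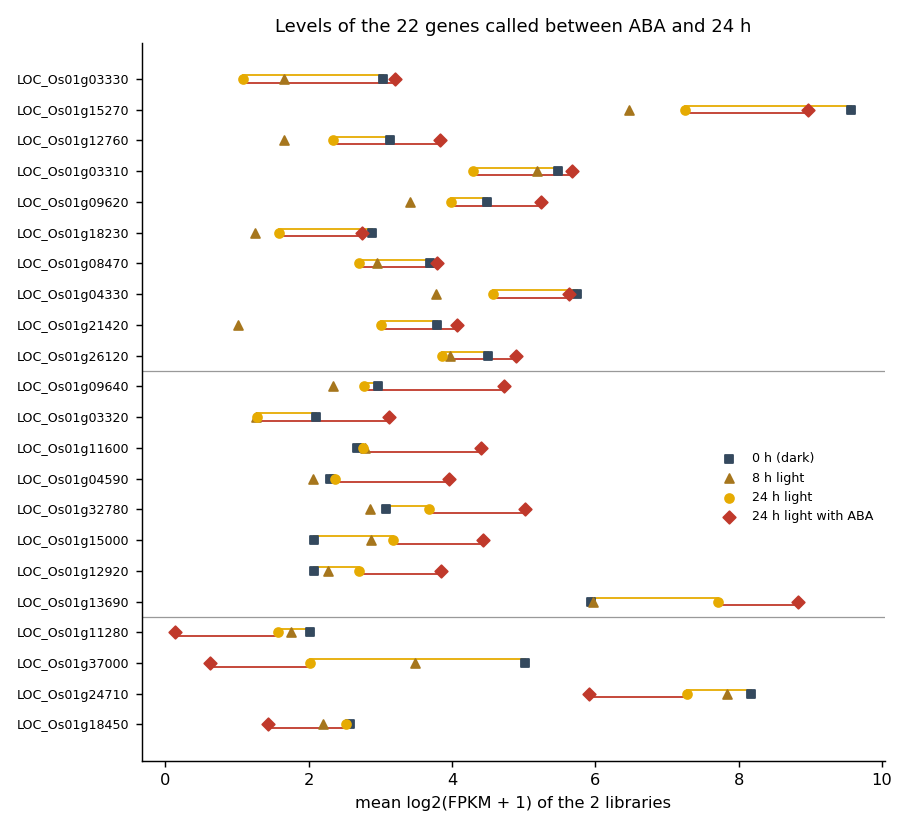
Mean log2(FPKM + 1) of the 2 libraries at 0 h, 8 h, 24 h and with ABA for the 22 called genes, where the yellow line joins 0 h to 24 h and the red line joins 24 h to ABA. The upper 10 genes rose with ABA to within 2-fold of darkness, the middle 8 rose to more than 2-fold above darkness, and the lower 4 fell to more than 2-fold below it.

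Set against darkness itself, ABA libraries had 72 genes called higher (6.59%) and 129 called lower (11.8%) in limma with Benjamini-Hochberg adjustment. The 18 genes that rose with ABA fell into 10 that were not called different from darkness and 8 that were called above it. The ABA minus 0 h differences of the former ran from -0.60 to 0.76. All 10 had a lower mean at 24 h than in darkness, which the split itself fixes. A gene at least 2-fold above 24 h and less than 2-fold above darkness must be lower at 24 h than in darkness. Of these 10, 4 passed the test below the 2-fold limit, with LOC_Os01g15270 lower than in darkness (-0.60) and LOC_Os01g26120 (0.40), LOC_Os01g12760 (0.69) and LOC_Os01g09620 (0.76) higher. For LOC_Os01g08470 the difference from darkness was 0.10, with a 95% interval of -0.09 to 0.29, and for LOC_Os01g18230 it was -0.14, with an interval of -0.51 to 0.22. These differences moved with the scaling, to 0.59 for LOC_Os01g08470, 0.31 for LOC_Os01g18230 and -0.07 for LOC_Os01g15270 under median-of-ratios scaling, where the 10 genes ran from -0.07 to 1.27 and 9 of them, in place of 7, had a higher mean with ABA than in darkness. LOC_Os01g21420 had the lowest level at 8 h in this group, with 12.6 and 13.1 FPKM in darkness, 1.09 and 0.946 FPKM at 8 h, 7.58 and 6.59 FPKM at 24 h, and 15.5 and 16.2 FPKM with ABA.

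The 8 genes above darkness were LOC_Os01g03320, LOC_Os01g04590, LOC_Os01g09640, LOC_Os01g11600, LOC_Os01g12920, LOC_Os01g13690, LOC_Os01g15000 and LOC_Os01g32780, with ABA minus 0 h differences of 1.02 to 2.89. Light had changed 2 of them by a called amount. Of the other 6, LOC_Os01g03320 was lower at 24 h than in darkness (-0.81) and LOC_Os01g12920 (0.63) and LOC_Os01g32780 (0.60) were higher, each past the test in limma with Benjamini-Hochberg adjustment but under 2-fold. In FPKM as deposited, LOC_Os01g04590 had the smallest light change, at 4.21 and 3.65 FPKM in darkness, 4.34 and 3.95 FPKM at 24 h, and 14.2 and 14.8 FPKM with ABA. Its 24 h minus 0 h difference was 0.06, with a 95% interval of -0.19 to 0.31. Under median-of-ratios scaling that difference was 0.39, larger than the 0.16 of LOC_Os01g09640. All 4 genes that fell with ABA were called below darkness. These assignments depended in part on scaling, because libraries in light had lower values over all genes than libraries in darkness, with a median 24 h minus 0 h difference of -0.38 and a median ABA minus 0 h difference of -0.44. With median-of-ratios scaling, genes called higher made up 85.1% of those called between ABA and 0 h in place of 35.8%, and 76.5% of those called between 24 h and 0 h in place of 44.97%. With that scaling LOC_Os01g09620 (1.27) and LOC_Os01g12760 (1.16) were also called above darkness, and LOC_Os01g18450 (-0.75) was no longer called below it.

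The comparison of 8 h with 0 h uses no library of ABA against 24 h, so the light change and the ABA change are measured in separate samples there. Light at 8 h had raised 46 genes (4.21%) and lowered 42 (3.85%), and with median-of-ratios scaling the counts were 69 and 26, or 72.6% higher in place of 52.3%. Of the 42 genes lowered by 8 h, 7 were called higher with ABA and 1 was called lower, beside 1.65% and 0.366% of all tested genes. The 7 were LOC_Os01g03330, LOC_Os01g04330, LOC_Os01g09620, LOC_Os01g12760, LOC_Os01g15270, LOC_Os01g18230 and LOC_Os01g21420, and the gene called lower was LOC_Os01g37000. Under median-of-ratios scaling LOC_Os01g09620 differed by -0.87 between 8 h and 0 h, under the 2-fold limit. From 8 h to 24 h, without a hormone, LOC_Os01g21420 (2.00), LOC_Os01g04330 (0.80), LOC_Os01g15270 (0.77), LOC_Os01g12760 (0.69) and LOC_Os01g09620 (0.57) had risen. LOC_Os01g18230 differed by 0.34, not past the test, and LOC_Os01g03330 (-0.57) and LOC_Os01g37000 (-1.47) had fallen. The median 24 h minus 8 h difference over all tested genes was -0.18. As a group these 42 genes had a median ABA change of 0.27 on the log2 scale beside -0.10 over all tested genes, and 28 of them (66.7%) lay above 0 beside 34.2% of all tested genes. At an adjusted p under 0.01 in limma with Benjamini-Hochberg adjustment and at any fold, 12 of the 42 were higher and 4 lower. Over all tested genes, 82 (7.51%) were higher and 133 (12.2%) lower at that limit. Relative to the median of all genes, the group's median was 0.37, and it ranged from 0.28 to 0.41 when each ABA or 24 h library was left out.

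The 46 genes raised by 8 h of light had a median ABA change of -0.17, which was -0.07 relative to all genes, and 12 of them (26.1%) lay above 0. Here 1 gene was higher and 12 were lower with ABA at an adjusted p under 0.01 in limma with Benjamini-Hochberg adjustment. The shares over all tested genes were 7.51% higher and 12.2% lower. In this group 0 genes passed the 2-fold limit as well. At an unadjusted p under 0.05 in limma, 5 were higher and 23 lower, beside 169 higher (15.5%) and 352 lower (32.2%) of all tested genes. Changes with ABA in this group stayed between -0.79 and 0.54. Genes lowered by 8 h of light thus had ABA changes shifted upward from those of all genes by more than genes raised by light were shifted downward. No test of the group difference was made.

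Among the genes that rose, 3 stood side by side. LOC_Os01g03310, LOC_Os01g03320 and LOC_Os01g03330 were consecutive genes on the minus strand, with 2.18 and 2.28 kb between them. They rose by 1.38, 1.83 and 2.12 on the log2 scale, at levels that were far apart. LOC_Os01g03310 went from 20.2 and 17.2 FPKM at 24 h to 49.5 and 50.3 FPKM with ABA, and LOC_Os01g03320 from 1.53 and 1.35 FPKM to 7.92 and 7.41 FPKM. Whether these genes share sequence, and so reads, was not tested, and their values may not be independent where they do.

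The surrounding stretch of 32.8 kb, from LOC_Os01g03290 (start 1333752) to LOC_Os01g03390 (end 1366503), held 11 genes, 9 of them on the minus strand and 6 of them tested. In 8 of the 11, among them all 6 tested genes, both ABA libraries were above both at 24 h, and the remaining 3 were under 0.1 FPKM in every library. The stretch was laid around the 3 genes called higher with ABA, so these are among the 8 by choice. The same pattern held for 230 of all tested genes (21.1%), and no enrichment of the stretch can be read from the 2 counts. LOC_Os01g03340 lay just under the 2-fold limit at 0.97 (SE 0.060, limma with Benjamini-Hochberg adjusted p = 2.59e-07), with 56.2 and 50.0 FPKM at 24 h and 104 and 106 FPKM with ABA, and it was past that limit at 1.09 under median-of-ratios scaling. LOC_Os01g03360 differed by 0.71 and LOC_Os01g03390 by 0.43, both at an adjusted p under 0.01 in limma. LOC_Os01g03290 was under the level required for testing and stood at 0.315 and 0.260 FPKM at 24 h and 2.17 and 2.13 FPKM with ABA, and LOC_Os01g03300 at 0.166 and 0.174 FPKM and at 0.806 and 0.511 FPKM. Light had acted unevenly along the stretch, since LOC_Os01g03360 had fallen from 355 and 333 FPKM in darkness to 18.4 and 17.2 FPKM at 24 h, and LOC_Os01g03390 from 99.4 and 83.3 FPKM only to 87.0 and 73.5 FPKM, a difference that did not pass the test. A further pair of called genes, LOC_Os01g09620 and LOC_Os01g09640, had no other tested gene between them and lay 20.05 kb apart.

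**Figure D4:**
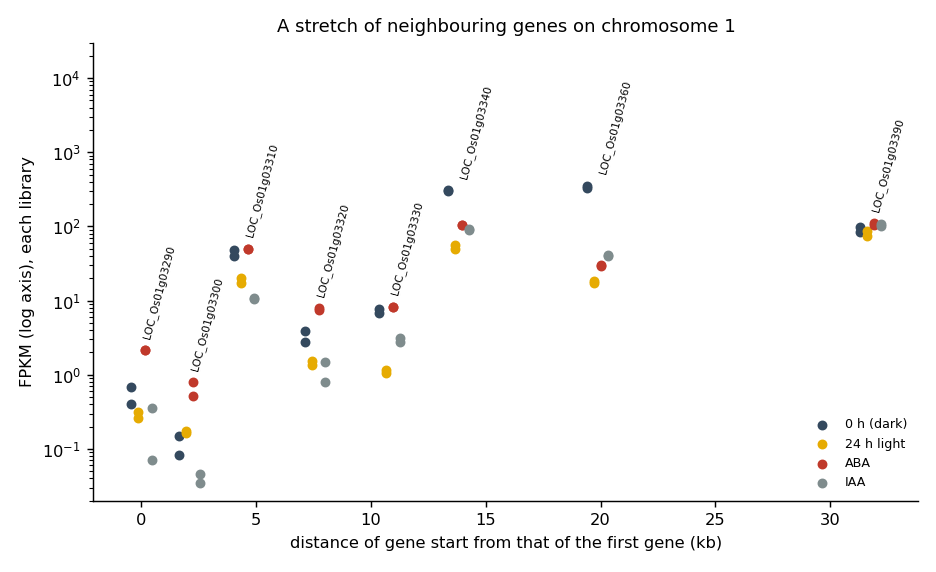
FPKM (logarithmic vertical axis) of the genes in the 32.8 kb stretch around the 3 neighbouring genes called higher with ABA, by distance in kb from the start of the first gene, with one point a library at 0 h and 24 h and with ABA and IAA, set slightly apart sideways. The ABA points lie above the 24 h points for each of the 8 genes plotted.

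IAA was sprayed in the same way and serves as the comparison for a spray of another hormone. Against 24 h, IAA had 51 genes called higher (4.67%) and 1 called lower (0.0916%), and directly against ABA, 53 genes were called higher with IAA (4.85%) and 10 lower (0.916%), in limma with Benjamini-Hochberg adjustment. These comparisons share libraries with ABA against 24 h, so the values are given side by side. Of the 18 genes that rose with ABA, 9 were called lower with IAA than with ABA. The largest differences were those of LOC_Os01g03310 (-2.13), LOC_Os01g03320 (-2.03), LOC_Os01g09640 (-1.90) and LOC_Os01g04590 (-1.86), and the others were LOC_Os01g32780, LOC_Os01g03330, LOC_Os01g12760, LOC_Os01g21420 and LOC_Os01g11600. LOC_Os01g09640 was at 6.20 and 5.98 FPKM with IAA, near its level at 24 h, and its IAA minus 24 h difference was 0.06, with a 95% interval of -0.14 to 0.25, and -0.09 under median-of-ratios scaling. LOC_Os01g03310 was at 10.7 and 10.6 FPKM with IAA, below both 24 h libraries, while ABA had raised it.

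For the other 9 genes that rose with ABA, the difference between the hormones was not called. Of these, 3 were called higher with IAA as well. They were LOC_Os01g09620 at 1.41 with IAA and 1.26 with ABA, LOC_Os01g12920 at 1.29 and 1.15, and LOC_Os01g15270 at 1.22 and 1.72. LOC_Os01g09620 stood at 40.5 and 41.7 FPKM with IAA and 37.2 and 36.7 FPKM with ABA, and the IAA minus ABA difference was 0.15 on the log2 scale, with a 95% interval of 0.01 to 0.29, but -0.14 under median-of-ratios scaling, so no order of the hormones can be read from it. Whether these genes answered the hormones, the solvent or the spray cannot be told apart without libraries known to be sprayed with solvent alone. LOC_Os01g13690 also belongs to the 9 that were not called, with an IAA minus ABA difference of -0.95 that missed the 2-fold limit, although its IAA libraries (238 and 231 FPKM) lay far under its ABA libraries (446 and 461 FPKM). Under median-of-ratios scaling its difference was past that limit at -1.24, and so was that of LOC_Os01g08470, at -1.18 in place of -0.91.

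Of the 4 genes that fell with ABA, 3 were called higher with IAA than with ABA. LOC_Os01g37000 moved in opposite directions, with 8.14 and 7.33 FPKM after IAA, 2.96 and 3.12 FPKM at 24 h, and 0.688 and 0.402 FPKM after ABA. Its log2 change with IAA was 1.11 (SE 0.109, limma with Benjamini-Hochberg adjusted p = 5.52e-06) and the IAA minus ABA difference was 2.50. LOC_Os01g18450 (1.47) and LOC_Os01g11280 (1.20) also differed, and LOC_Os01g24710 was below the limit at 0.96. With median-of-ratios scaling, 14 of the 22 genes differed between the hormones in place of 12, and genes called higher with IAA made up 61.4% of those called between IAA and ABA in place of 84.1%. Between IAA and 24 h that share was 85.7% in place of 98.1%.

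**Figure D5:**
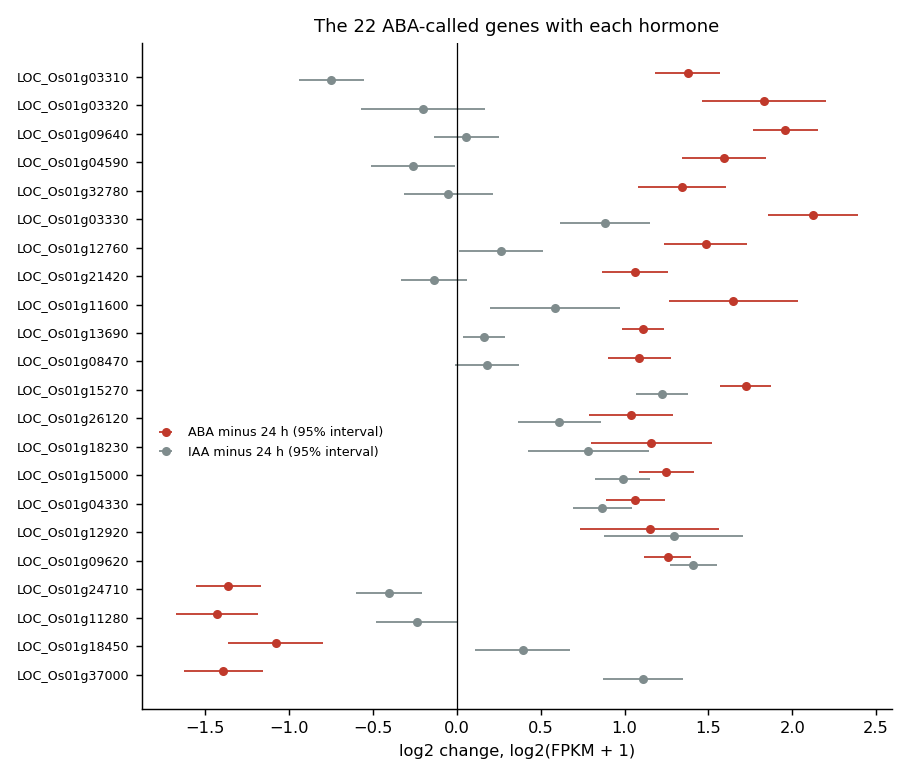
Log2 change from 24 h on the log2(FPKM + 1) scale (horizontal axis) with ABA (red) and with IAA (grey) for the 22 genes called with ABA, with bars for the 95% interval from limma. LOC_Os01g09640 lies at 1.96 with ABA and 0.06 with IAA (-0.09 under median-of-ratios scaling), LOC_Os01g09620 at 1.26 and 1.41, and LOC_Os01g37000 at -1.39 and 1.11.

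The regulators that could be named did not pass the limits with ABA. GLK2 (LOC_Os01g13740, 7686884 to 7693987, minus strand), a transcription factor of chloroplast development, measured 20.9 and 20.2 FPKM in darkness, 36.3 and 32.5 FPKM at 24 h, and 32.5 and 29.3 FPKM with ABA. The ABA minus 24 h difference was -0.15 (SE 0.073, limma with Benjamini-Hochberg adjusted p = 1.22e-01), with a 95% interval of -0.31 to 0.01 that leaves out a 2-fold change in either direction. OsbZIP1 (LOC_Os01g07880, 3811149 to 3812069, minus strand), whose Arabidopsis homolog HY5 is a bZIP factor that promotes development in light, measured 5.58 and 5.70 FPKM in darkness, 3.71 and 2.45 FPKM at 24 h, and 4.12 and 4.24 FPKM with ABA. Its 24 h minus 0 h difference was -0.72 (limma with Benjamini-Hochberg adjusted p = 3.32e-04), under the 2-fold limit, and -0.39 under median-of-ratios scaling. The study reports this gene as not significantly changed under light. Its ABA minus 24 h difference was 0.36 (SE 0.133, limma with Benjamini-Hochberg adjusted p = 4.83e-02), with a 95% interval of 0.07 to 0.65 and values between 0.14 and 0.59 when single ABA or 24 h libraries were left out. With IAA it stood at 11.3 and 9.91 FPKM, above all other libraries, and the IAA minus ABA difference was 1.16 (SE 0.133, limma with Benjamini-Hochberg adjusted p = 1.91e-05).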

How the data were processed

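RNA-seq libraries were made from 2 replicates of each of 5 conditions, which the study's methods call biological replicates. The authors trimmed reads with seqtk, mapped them to MSU7.0 with Hisat2 and deposited FPKM values. The study's methods name Cufflinks for FPKM, the submitters' processing notes name featureCounts and DESeq2 and no Cufflinks, and which tool made the table was not settled. A strand setting for the FPKM is not given in the sources used here, and the study elsewhere gives levels under the label TPM, which the values cannot settle. FPKM fix no depth, so intervals rest on the spread between libraries. With 2 against 2, an exact permutation test cannot reach 0.05, and limma alone was used.

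Columns were matched to samples by name. Of 2283 genes of the table used here, 1 incomplete one was left out, and 491 were listed at 0 in all libraries. Genes averaging 1 FPKM or more were fitted as log2(FPKM + 1) in limma 3.58.1 (R 4.3.3; lmFit, eBayes with trend) over all 10 libraries. Calls required a 2-fold change and a Benjamini-Hochberg adjusted p under 0.01. Fold changes on this scale understate those of low genes. Tables were handled with Python 3.11.15 and pandas 2.3.3. Tested on simulated data for ABA against 24 h (1092 genes, 200 of them changed 3-fold), the fit called 176 of the changed genes (88%) and 0 of the 892 unchanged ones. All 141 changed genes with a mean of 5 FPKM or more were called, so every miss lay below that level. The simulated libraries had no shift between them, so the 0 wrong calls say nothing of shifts between real libraries.

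Alternatives were a pseudocount of 0.1, no filter, a minimum of 5 FPKM, median-of-ratios scaling, the compared libraries alone, a replicate block, an adjusted p under 0.05, and leaving out each ABA and 24 h library. The genes named are all those called for ABA against 24 h, the 2 nearest to each side of the 2-fold limit, GLK2 and OsbZIP1. LOC_Os01g05585, LOC_Os01g06560, LOC_Os01g28840 and the neighbours of LOC_Os01g03330 were added after their values were seen. Members, rules and lists were chosen with earlier results of these data known. The identifiers matched 0 entries of a RefSeq gene table (assembly ASM3414082v1), so lists of ABA signalling, drought, photosynthesis and seed storage genes could not be applied. None of the 22 called genes overlaps another gene listed in the table.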

Additional observations from a re-analysis of the deposited data

How the results depend on the processing

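All 22 calls between ABA and 24 h were kept with a pseudocount of 0.1, median-of-ratios scaling and the compared libraries alone. An adjusted p under 0.05 is a looser limit on the same fit and could lose none of them. With no filter 21 were kept, and LOC_Os01g12920 had an adjusted p of 1.54e-02 in limma. A minimum of 5 FPKM kept 17, since the other 5 genes were no longer tested. With a pseudocount of 0.1, 10 genes were lower with ABA, 6 moved further along their light change and 13 back. With a minimum of 5 FPKM, 2 were lower, 3 moved back, and 40 differed between IAA and ABA, fewer genes being tested. Leaving out single ABA or 24 h libraries gave 15 to 28 genes higher, 3 to 5 lower, 3 to 4 further along and 5 to 13 back, with 28 and 13 both reached without 24 h replicate 1, and it kept 18 to 22 of the 22 calls. LOC_Os01g12920 also missed the limit without ABA replicate 1 (limma adjusted p = 1.08e-02). With 1 library left in a group, that library is assumed to vary like the others. No ABA minus 24 h change of a called gene, GLK2 or OsbZIP1 reversed in these alternatives. Median-of-ratios scaling turned the sign of uncalled differences, among them ABA minus 0 h of LOC_Os01g04330 (-0.12 to 0.40) and LOC_Os01g18230 (-0.14 to 0.31), IAA minus ABA of LOC_Os01g09620 (0.15 to -0.14) and LOC_Os01g12920 (0.14 to -0.13), and IAA minus 24 h of LOC_Os01g09640 (0.06 to -0.09). The replicate numbers did not pair the libraries (correlation of deviations -0.07 to 0.11 between conditions). The replicate block left 18 higher, 4 lower, 3 further along, 5 back, 169 genes called between 24 h and 0 h, 88 between 8 h and 0 h, 201 between ABA and 0 h, 52 between IAA and 24 h and 63 between IAA and ABA, as without it.

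The data cover part of chromosome 1 and 2 libraries a condition, taken once, 30 min after the spray. Depth is unknown, so a low FPKM has no counting error here.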

Other observations

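Genes under the mean of 1 FPKM, 1190 of the 2282, were not tested. Among them 3 had at least 1 FPKM in both ABA libraries and more than 2 times the level of both libraries at 24 h, and 0 had the reverse pattern. They were LOC_Os01g03290, given above with its neighbours, LOC_Os01g06560 (3091123 to 3092865, minus strand) and LOC_Os01g28840 (16151540 to 16154058, minus strand). LOC_Os01g06560 stood at 0.117 and 0.094 FPKM in darkness, 0.218 and 0.256 FPKM at 24 h, 1.79 and 1.05 FPKM with ABA, and 1.15 and 0.661 FPKM with IAA. LOC_Os01g28840 stood at 0.542 and 0.424 FPKM at 24 h, 1.99 and 1.88 FPKM with ABA, and 1.15 and 1.07 FPKM with IAA. That the ABA libraries of these 3 genes lay above those at 24 h was fixed by the rule that picked them. With IAA, both libraries of LOC_Os01g06560 and of LOC_Os01g28840 also lay above both at 24 h. LOC_Os01g03290 had 0.071 and 0.359 FPKM with IAA beside 0.315 and 0.260 FPKM at 24 h. How many untested genes had both IAA libraries above both at 24 h was not counted.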
